A study of Rattus norvegicus with 14 samples.

Results

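RT1 is the major histocompatibility complex of the rat. All rows of the deposited region tables whose gene name starts with RT1- were taken, and these were 3 of 8555 listed regions, at 3 genes of the 3797 named in the tables. They were the promoters of RT1-CE5, RT1-CE3 and RT1-M6-2, all class I genes on chromosome 20. No class II gene and no RT1-A gene was among them. RefSeq lists 67 RT1 genes in the rat assembly GRCr8, all on chromosome 20, of which 44 are protein coding and 19 are pseudogenes. The tables hold only candidate regions of 10 or more CpG positions whose deposited group difference is 2.5 percentage points or larger, so a gene that is not listed was not analysed here and cannot be called unaffected.

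The 14 libraries are reduced representation bisulfite sequencing of sperm DNA from male Wistar rats, an outbred stock, in 4 groups. Controls (3 libraries) stayed with the dam and ate standard chow. High-fat diet rats (HFD, 4 libraries) were not separated. Early-life stress rats (ELS, 4 libraries) were parted from the mother daily, 3 h at a time, for 16 days beginning on postnatal day 1, and ate chow, and ELS-HFD rats (3 libraries) had the separation and then the high-fat diet. Diets were assigned at postnatal day 60, after an elevated plus maze test at postnatal day 57 that the protocol gives for all groups. Nothing in the labels ties libraries to litters, so libraries of a group could come from the same litter. The tests below treat them as independent. The spread between libraries may also be partly technical. The codes in the table headers were read as these groups by their letters and their numbers of columns. Read depth is unknown, because the tables give percentages only. As a check of the sperm label, genes with germline imprints known from mouse were looked up. Of 20 genes that are unmethylated in sperm and methylated in the oocyte, 5 were listed, in 29 regions with group means from 0.163% to 23.9% and a median of 3.74%. Of 6 genes with an imprint methylated in sperm, 2 were listed: an intergenic region near Zdbf2 had group means of 95.6% and 98.3%, and an intron of Dlk1 had group means from 13.4% to 18.3%. These regions need not be the imprint control regions themselves.

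Class I molecules of the histocompatibility complex show peptides from inside the cell to cytotoxic T cells, and class II molecules show peptides from outside the cell to helper T cells. In the rat the RT1-A region holds the classical class I genes, while the RT1-C/E and RT1-M regions hold large families of non-classical class I genes that arose by duplication. Classical class I promoters carry an enhancer bound by NF-kappaB, an interferon response element and a conserved module for NF-Y and other factors. Methylation of CpG-dense promoters goes with silencing in somatic cells, and such promoters are mostly unmethylated in sperm.

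The promoters of the 3 genes are shown because every listed RT1 region is annotated to one. They are RefSeq sequences of GRCr8 from 250 bases before to 50 bases after the gene start, printed on the strand of the gene, with each CG in capitals, and all 3 genes were matched by symbol. This assembly is of the BN strain and is not the Rnor_6.0 build of the tables, so the listed interval cannot be placed on it here. Nor do the windows match all intervals in CpG content: counting both strands, RT1-CE3 has at most 14 CG cytosines in any 54 bases of its window against 19 listed positions, and RT1-M6-2 at most 6 in 207 bases against 10, while RT1-CE5 has up to 14 in 57 bases against 12. The RT1-CE5 window is chr20:3484041-3484340, minus strand, the RT1-CE3 window chr20:3525109-3525408, minus strand, and the RT1-M6-2 window chr20:1588283-1588582, plus strand.
RT1-CE5: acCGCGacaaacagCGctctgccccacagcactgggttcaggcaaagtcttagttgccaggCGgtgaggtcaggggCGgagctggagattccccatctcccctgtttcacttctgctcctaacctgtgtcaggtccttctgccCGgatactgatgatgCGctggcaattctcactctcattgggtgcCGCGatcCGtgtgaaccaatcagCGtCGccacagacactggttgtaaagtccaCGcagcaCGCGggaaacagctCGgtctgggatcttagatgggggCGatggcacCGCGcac
RT1-CE3: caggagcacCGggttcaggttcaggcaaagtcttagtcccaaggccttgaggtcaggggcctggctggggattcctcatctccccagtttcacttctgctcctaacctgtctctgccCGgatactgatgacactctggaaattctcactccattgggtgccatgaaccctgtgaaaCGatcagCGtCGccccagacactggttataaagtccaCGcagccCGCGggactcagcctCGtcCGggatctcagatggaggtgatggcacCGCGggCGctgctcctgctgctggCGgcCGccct
RT1-M6-2: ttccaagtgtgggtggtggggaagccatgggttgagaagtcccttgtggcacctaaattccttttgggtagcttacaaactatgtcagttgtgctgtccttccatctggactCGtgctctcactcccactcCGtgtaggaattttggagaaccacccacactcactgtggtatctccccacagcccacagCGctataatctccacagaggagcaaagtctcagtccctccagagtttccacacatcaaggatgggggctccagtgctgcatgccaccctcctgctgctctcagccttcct

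The counts that follow describe these windows of GRCr8, not the measured intervals. RT1-CE5 has 19 CG dinucleotides in 300 bases, as many as any of the 42 RT1 promoters in the RefSeq table, and 25.7% of all 33469 promoters have at least that many. RT1-CE3 has 15, and 32% of all promoters have at least that many. RT1-M6-2 has 3, which 77.7% of promoters reach. The median was 13.5 over 12 RT1-CE promoters, 4 over 7 RT1-M promoters, 4 over 9 class II promoters and 7 over all promoters. The sequence CCGG, which the restriction enzyme MspI of common RRBS protocols cuts, occurs 1 time in the RT1-CE5 window, 3 times in that of RT1-CE3 and 0 times in that of RT1-M6-2, and 51.4% of all promoters hold it. Among the deposited regions, 28 listed regions count more CpG positions than CG dinucleotides can fit in their length, so positions on the 2 strands appear to be counted apart.

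**Figure D1:**
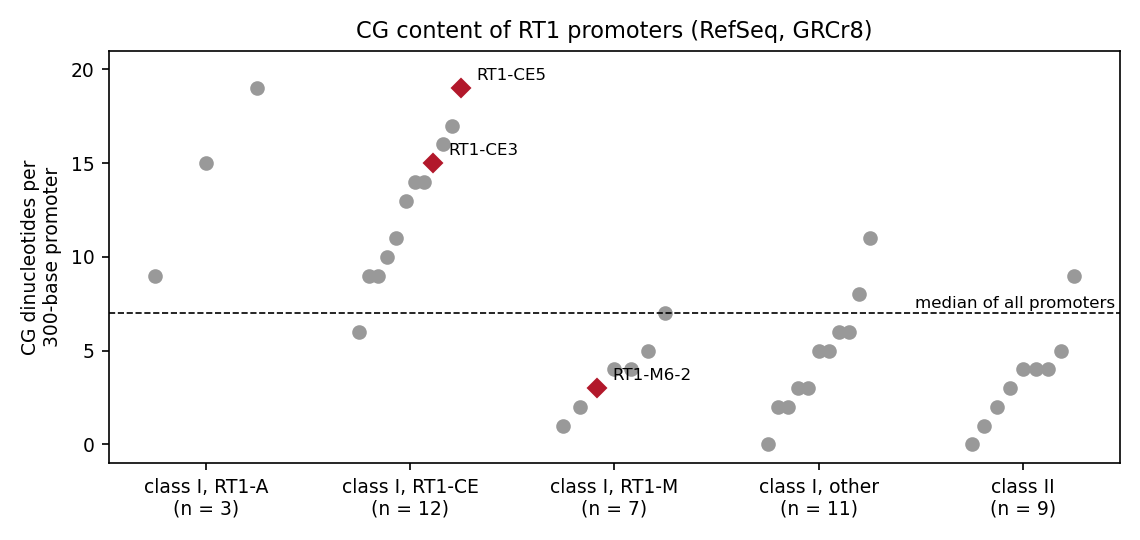
Number of CG dinucleotides per 300-base promoter (vertical axis) for 42 RT1 genes of RefSeq, grouped by family along the horizontal axis, with 1 point per gene. The 3 genes with a listed region are red diamonds, at 19, 15 and 3, and the dashed line is the median of 7 over all 33469 promoters.

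The letters CCAATCAG, a CCAAT box bound by the factor NF-Y in class I and class II promoters, were searched on both strands. They begin at position -48 from the start of RT1-CE5 and are not in the RT1-CE3 and RT1-M6-2 windows. They are in 19 of 42 RT1 promoters and in 3.5% of all promoters. A match of letters is a description, not evidence of binding.

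The family is built of similar copies, which bears on every value below. Over the printed window RT1-CE5 is 83.5% identical to RT1-A3, 81.1% to RT1-CE11 and 71.7% to RT1-CE3, and its longest run of identical bases is 46, shared with RT1-CE4. RT1-CE3 is closest to RT1-CE10, at 80.4%, and its longest shared run is 34 bases, with RT1-A1. RT1-M6-2 is 96% identical to RT1-M6-1, with a shared run of 70 bases. Reads of a copy could be placed on another, so the member behind each region is uncertain. Among the printed windows that of RT1-M6-2 has the closest copy, but the identity of the measured intervals to their copies was not computed.

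RT1-CE5 is a non-classical class I gene of the C/E region. Its listed region lies in the promoter (transcript ENSRNOT00000060980, gene ENSRNOG00000000723) on chromosome 20, 4897027 to 4897083 of Rnor_6.0, counted from 1, with 12 CpG positions in 57 bases and its reference point at -64 from the start. The comparison of ELS-HFD with control asks what separation and diet together go with. The ELS-HFD libraries had 24.5, 16.4 and 11% methylation. The control libraries had 0.833, 0.463 and 0%. Every ELS-HFD library lay above every control library, with a gap of 10.2 percentage points between the groups, and the ELS-HFD values ranged over more than 10 points themselves. The means were 17.3 ± 6.82% (SD, n = 3) and 0.432 ± 0.418% (SD, n = 3), a difference of 16.9 percentage points.

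The q-value of the RT1-CE5 region was 0.00279 in the authors' deposited table, the rank 7 of 1867 listed regions, and 0.696% of the listed regions had a q-value under 0.05 and 0.107% had one with higher methylation in ELS-HFD. In a limma fit over all 1867 regions, on log2 odds of methylation, the difference was 3.92 ± 0.44 (SE) with an adjusted p of 0.0306, at rank 2, and 0.107% of regions passed. The exact two-sided permutation p for these 6 libraries was 0.1, the smallest that 3 against 3 allows. Regions were listed for a difference, so these p-values tend to be too small. The limma call was lost when any 1 of the 6 libraries was left out, at adjusted p from 0.0696 to 0.161, and on the percent scale at an adjusted p of 0.272, while methylation stayed higher in ELS-HFD by 13.3 to 20 percentage points.

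The change at RT1-CE5 was large for its kind of site. It ranked 13 among the 561 regions with higher methylation in ELS-HFD and 4 by size among 270 listed promoter regions, whose median absolute difference was 3.36 percentage points. By size in either direction it ranked 40 among all 1867 listed regions. Of 106 regions with a control mean under 1%, RT1-CE5 had the only ELS-HFD mean over 10%, limits that were chosen after its values were seen. Its SD of 6.82 among ELS-HFD libraries compares with a median SD of 3.92 over the 296 regions with an ELS-HFD mean between 10 and 25%. The order of the libraries at RT1-CE5 was also their order in the 106 regions, which include RT1-CE5: there the library with 24.5% at RT1-CE5 had a median of 5.09%, that with 16.4% a median of 3.1% and that with 11% a median of 1.22%. The library with 24.5% was the highest of its group in 55.7% of those regions. Over all 1867 listed regions the order differed, with medians of 12.5%, 10.2% and 11.9% for the libraries with 24.5, 16.4 and 11% at RT1-CE5, and the first of them was the highest in 42.6%. The control libraries had medians of 0.394, 0.447 and 0.432% in the 106 regions, which were taken for a low control mean. Over all 1867 regions their medians were 14, 13.7 and 14.6%. The part of the difference between ELS-HFD libraries in the result was not tested.

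The RT1-CE5 interval is in no other table. HFD and ELS libraries were therefore not analysed there, and whether diet alone or separation alone went with the same change cannot be told apart from these files.

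**Figure D2:**
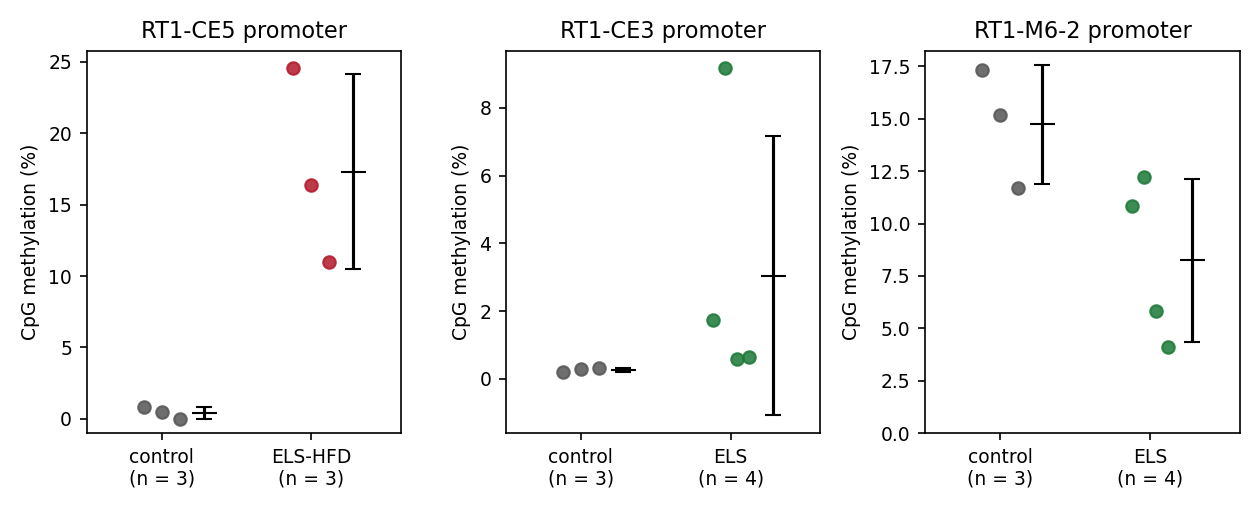
Percent CpG methylation (vertical axis, scaled for each panel) of each library at the RT1-CE5, RT1-CE3 and RT1-M6-2 promoters, with 1 point per library and bars for mean ± SD. At RT1-CE5 the lowest ELS-HFD library, at 11%, is above the highest control library, at 0.833%; at RT1-CE3 a lone ELS library stands at 9.18%; at RT1-M6-2 the groups overlap.

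RT1-CE3, another class I gene of the C/E region, lies 37.9 kb from the RT1-CE5 region. Its listed region is in the promoter (transcript ENSRNOT00000071840, gene ENSRNOG00000031607) on chromosome 20, 4934970 to 4935023, with 19 CpG positions in 54 bases and its reference point at -125. It was listed in the comparison of ELS with control, which asks about separation on chow. The ELS libraries had 1.75, 9.18, 0.589 and 0.661%. The control libraries had 0.208, 0.294 and 0.312%. All ELS libraries lay above all control libraries, by a gap of 0.277 percentage points, and 1 ELS library lay far above the other ELS values. The means were 3.04 ± 4.12% (SD, n = 4) and 0.272 ± 0.0556% (SD, n = 3).

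The difference of 2.77 percentage points at RT1-CE3 was smaller than the SD of the ELS libraries. Without the library at 9.18% it was 0.73. The limma adjusted p was 0.213, with an unadjusted p of 0.0821, and the exact two-sided permutation p was 0.0571, the smallest that 4 against 3 allows. The q-value was 1 in the authors' deposited table. The ELS library at 9.18% was the highest ELS library in 14.6% of the 89 regions with a control mean under 1%, which include RT1-CE3. This was the lowest share of the 4 ELS libraries, which reached up to 40.4%. The cause of the value of 9.18% was not tested.

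RT1-M6-2 is a class I gene of the M region. Its listed region covers the start (transcript ENSRNOT00000079838, gene ENSRNOG00000040052) on chromosome 20, 2076423 to 2076629, with 10 CpG positions in 207 bases and its reference point at -57. It too was listed for ELS against control, with the opposite sign. The ELS libraries had 10.8, 12.2, 5.85 and 4.11%. The control libraries had 17.3, 15.2 and 11.7%. The highest ELS library lay above the lowest control library, so the groups overlapped. The means were 8.25 ± 3.88% (SD, n = 4) and 14.7 ± 2.83% (SD, n = 3), a difference of -6.49 percentage points, against -7.5 in the authors' deposited table.

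The difference at RT1-M6-2 did not pass: the limma adjusted p was 0.186, with an unadjusted p of 0.0475, the exact two-sided permutation p was 0.114, and the q-value was 1 in the authors' deposited table. It stayed negative without each library in turn, between -8 and -5.11 percentage points. Unlike the RT1-CE promoters, which were near 0% in control libraries, RT1-M6-2 was partly methylated in all 7 libraries.

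Across the comparisons, RT1 regions passed the authors' q of 0.05 in 1 of 1 listed regions for ELS-HFD against control and in 0 of 2 for ELS against control, where 0.919% of 1849 listed regions passed. limma passed 0 of these 2 regions and 0% of the 1849 regions. An unadjusted p under 0.05 was found for 1 of the 2 and for 26.9% of the 1849. The groups did not overlap at RT1-CE5, where this held for 38.7% of all listed regions of that table, and in 1 of 2 RT1 regions for ELS, where it held for 25.7%. No RT1 region was listed for HFD against control, for HFD against ELS-HFD or for ELS against ELS-HFD, where 0.632%, 0.423% and 0.686% of regions passed that q. Both comparisons with RT1 regions use the same 3 control libraries.

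**Figure D3:**
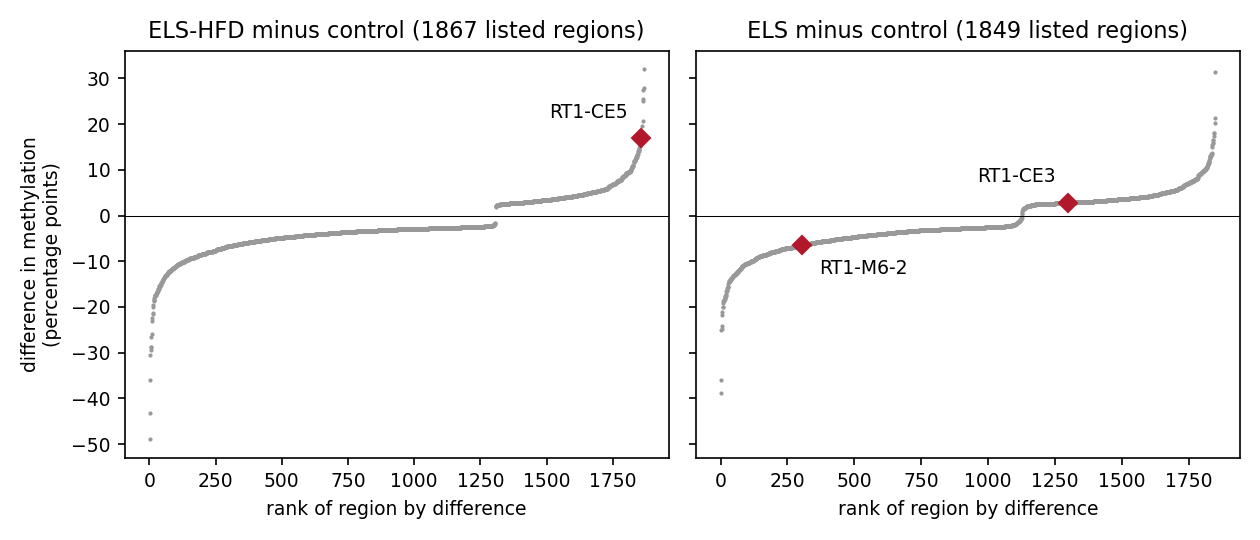
Difference in methylation in percentage points (vertical axis) of all listed regions, ranked from lowest to highest (horizontal axis), for ELS-HFD minus control and ELS minus control, with RT1 regions as red diamonds. RT1-CE5, at 16.9, is near the upper end, while RT1-CE3, at 2.77, and RT1-M6-2, at -6.49, are among the bulk; the step near 0 comes from the minimum difference in the tables.

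The 3 RT1 regions span 2.86 Mb, and the tables list 39 other regions between them, nearest to 18 genes. For ELS-HFD against control 10 were listed, 1 with higher and 9 with lower methylation, so RT1-CE5 and Tubb5, a beta-tubulin gene, were the higher ones. The median difference of the 10 was -6.02 percentage points, beside -3.06 over all 1867 regions, of which 30% were higher. The promoter of Ring1, a Polycomb subunit gene, had 27.2 ± 2.44% (SD, n = 3) against 35.9 ± 1.84% (SD, n = 3). For ELS against control 6 of 12 were higher and 6 lower. By the authors' deposited table none of the 39 reached a q-value under 0.05, and none passed limma, where the lowest adjusted p was 0.0952. An unadjusted p under 0.05 was found for 10 of the 39 (25.6%), near the 26.1% of all 8555 listed regions.

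**Figure D4:**
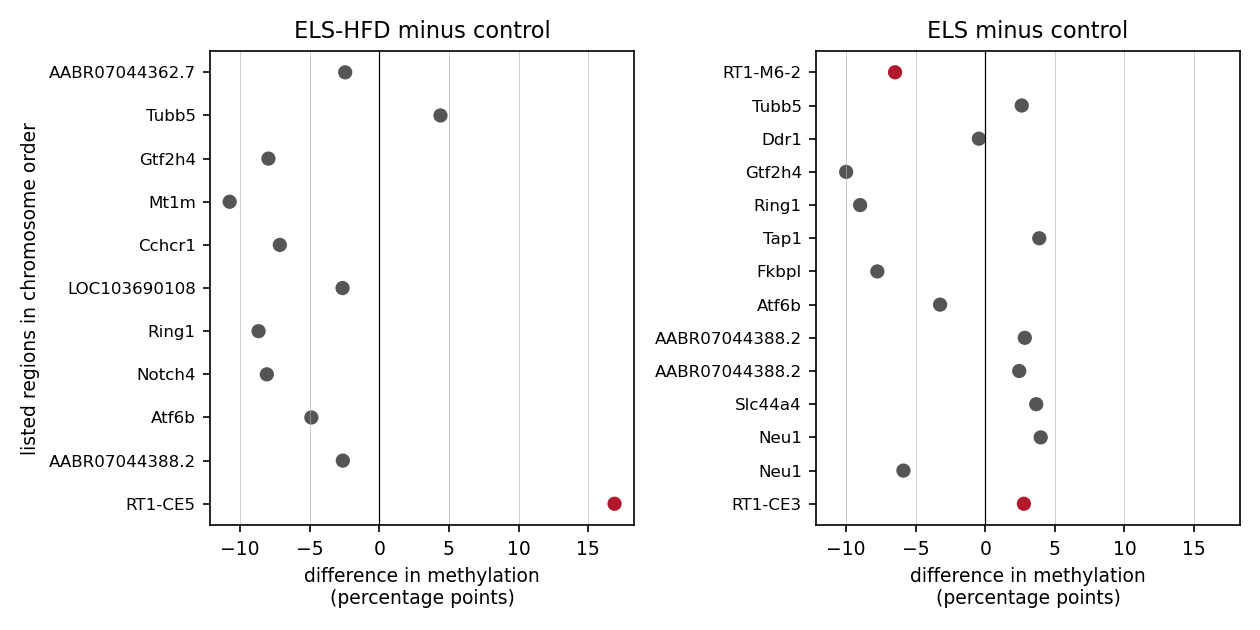
Difference in methylation in percentage points (horizontal axis) of the listed regions from RT1-M6-2 to RT1-CE3, in chromosome order from top to bottom and named by nearest gene, for ELS-HFD minus control and ELS minus control. RT1 regions are red and the others grey; RT1-CE5 is the farthest to the right, at 16.9, while 9 of 10 other ELS-HFD regions lie left of 0.

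Genes that load and regulate histocompatibility molecules were taken from a list of 40, of which 8 were listed, in 21 regions. In limma 0 of the 21 passed, with a lowest adjusted p of 0.11, and 5 (23.8%) had an unadjusted p under 0.05, near the 26.1% of all 8555 listed regions. Tap1 encodes a subunit of the transporter that brings peptides to class I molecules. A region annotated as a transcript end, 1562 bp from the Tap1 start, had 12 ± 2.01% (SD, n = 4) in ELS and 8.12 ± 1.28% (SD, n = 3) in control. Its limma adjusted p was 0.21. In ELS-HFD against control all 5 listed regions of the list were lower, with a median of -3.5 percentage points. Lower methylation was common in that comparison: 1306 of all 1867 listed regions were lower, and the median over all was -3.06.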

How the data were processed

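Sperm DNA of 14 libraries was profiled by reduced representation bisulfite sequencing. Libraries were made with the Zymo-Seq RRBS kit per the labels' protocols, and the submitters' processing notes name Trim Galore, Bismark, Bowtie and the build Rnor_6.0 without tool versions. Each of the 5 deposited tables lists regions of the caller metilene per the file headers; its settings and any coverage filter are not given in the sources used here. The authors deposited methylation as a percent for every library, with group means. The deposited p-values and q-values are those of the caller, whose observations are CpG values rather than animals. CpG positions per region are counts given by the authors. Context, distance to the start and nearest gene were taken as deposited.

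Means, SDs and overlap were computed from the library columns, which carry group codes and no replicate numbers. The limma fit (version 3.58.1, R 4.3.3) took log2((percent + 1) / (100 - percent + 1)) of all listed regions of a table with Benjamini-Hochberg adjustment, after a test on simulated data. Permutation tests used SciPy 1.17.1, and promoters were aligned globally with Biopython 1.88. Alternatives were the percent scale, offsets of 0.5 and 5, at least 15 CpG positions, a difference of at least 10 percentage points, a variance trend, a q-value of 0.01 and leaving out each library. All RT1 regions are described; other genes are named from the antigen processing list or for lying between the RT1 regions. Members and lists were chosen with earlier results of these data known, and the motif and the limits for regions of low methylation after the values were seen. The series' design text speaks of RNA from the amygdala, but the labels and tables of sperm were followed. The regions of 1 gene of the antigen processing list are not reported here.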

Additional observations from a re-analysis of the deposited data

Results flagged for a closer look

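In 45 groups of 4 libraries at the RT1 regions, the regions between them and those of the antigen processing list, 10 held a library that stood apart from the other 3. The rule was a gap of more than 0.829 of the group's range (Dixon's limit), which independent normal values pass about 1 time in 20. Percentages are bounded, and some groups recur in 2 tables over nearly the same bases. The share over all listed regions was not computed, so the count cannot be read against that rate. At RT1-CE3 the library that stood apart was the ELS library at 9.18%, whose gap was 0.864 of the range. Between the RT1 regions, 1 HFD library stood apart at 2 regions annotated as transcript ends. It had 98.7% at 200 bp from the Trim39 start and 14.7% at 884 bp from the Neu1 start. Another HFD library had 27.8% at the Ring1 promoter. An ELS library had 79.8% upstream of Ddr1. The ELS library at 9.18% at RT1-CE3 also had 0.962% at the region named AABR07044388.2 and 11.8% at a region 62490 bp from the Lgmn start. Of the list, another ELS library had 14.6% at the Tapbp promoter, and the remaining one had 10.4% and 11.4% at exon 1 of Lgmn in the 2 tables that list it. Libraries were followed between tables by column order, which regions shared by the tables bear out: for HFD 176 of 201 and for ELS 123 of 138 have identical values in the same order.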

How the results depend on the processing

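No paired analysis was possible, because nothing in the labels ties a library of 1 group to a library of another. The fit for ELS-HFD against control passed 1 RT1 region, RT1-CE5. It passed 0 on the percent scale, with an offset of 5 and, because RT1-CE5 has 12 CpG positions, among regions with at least 15, where the authors' call and the count without overlap were also 0. It passed 0 without each library in turn (lowest and highest count 0). The RT1-CE5 difference was 16.9 percentage points with adjusted p of 0.272 on the percent scale and 0.0743 with an offset of 5, and 13.3 to 20 with 1 library left out. It stayed past the threshold with an offset of 0.5 (0.0266), a variance trend (0.0221) and among differences of at least 10 (0.0107). The last set was chosen by the same difference that is tested, so it is no independent check. Its unadjusted limma p was 5.89e-05, against 3.27e-05 in the main fit. Fewer libraries or regions enter some of these fits; otherwise the cause was not tested. The count of RT1 regions without overlap for ELS against control, 1, was 0 among differences of at least 10 percentage points and 1 to 2 with a library left out: it was 2 without the ELS library at 12.2% or the control library at 11.7% at RT1-M6-2. RT1-CE3 (0.73 to 3.59 percentage points) and RT1-M6-2 (-8 to -5.11) kept their direction and failed limma under all of these settings in which they were tested, with adjusted p from 0.18 to 0.343 and from 0.164 to 0.301. The number of separate loci, 3, did not change with the overlap required. Depth is unknown and limits every value.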

Other observations

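Ring1, a Polycomb subunit gene that lies between the RT1 regions, was listed in 3 tables over intervals that differ by some bases. Its promoter had 38.1 ± 2.84% (SD, n = 3) in control and 29.1 ± 1.49% (SD, n = 4) in ELS over 3814266 to 3814372 of chromosome 20, and 33.5 ± 3.84% (SD, n = 4) in HFD and 27.4 ± 1.61% (SD, n = 3) in ELS-HFD over 3814283 to 3814350. In ELS and in ELS-HFD every library was below every control library, and the limma adjusted p-values were 0.19 and 0.225. The groups did not overlap in 25.7% of all listed regions for ELS and in 38.7% for ELS-HFD. Both comparisons use the same 3 control libraries. A region in an exon of transcript ENSRNOT00000083223 had 82.4 ± 4.02% (SD, n = 4) in ELS against 92.4 ± 1.67% (SD, n = 3) in control, with a limma adjusted p of 0.0952. Its nearest gene start is that of Gtf2h4, which encodes a subunit of the transcription factor TFIIH. The region lies at -8707 bp from that start, so the exon need not belong to Gtf2h4. These genes were named after their values were seen.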
